A study of Homo sapiens with 6 samples.

Results

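The 83 genes described here encode the proteins of the cytosolic ribosome, as read by poly(A) RNA sequencing in 22RV1, a human cell line established from prostate cancer. They were taken by name from the 17811 listed genes: protein-coding genes called RPL or RPS with a number (and at most one suffix letter and digit), plus RPSA, RPLP0, RPLP1 and RPLP2, without the RPS6 kinases, pseudogenes and Y-linked genes. Of the 83, 51 belonged to the large subunit and 32 to the small subunit, and 6 were paralogs beside the 77 core genes (RPL3L, RPL7L1, RPL22L1, RPL26L1, RPL39L and RPS27L). The name rule uses no measured value, although the members were chosen with earlier results of these data known. All 83 passed the filter on low values.

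The study had 3 groups of 2 libraries each, all from 22RV1 cells that stably express a short hairpin RNA. The medium was RPMI-1640 with 10% serum (FBS). The control, shLuc, carried a hairpin against luciferase, shIMPA1 one against IMPA1 (inositol monophosphatase 1, which frees inositol from inositol phosphates), and shIMPDH2 one against IMPDH2 (which makes XMP from IMP, the step that limits guanine nucleotide supply). The 2 libraries of a group are titled alike apart from their number, and nothing in the labels tells separate cultures or hairpins from repeat libraries. The spread behind each p-value is that between 2 such libraries and may be technical only. The design asks what lowering either enzyme changes in the mRNA of these cells.

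The libraries held 20828900 to 27773294 reads in listed genes. IMPA1 had a log2 fold change of -0.52 in shIMPA1 (limma adjusted p = 0.0145), and IMPDH2 had a log2 fold change of -0.61 in shIMPDH2 (limma adjusted p = 0.00999). All 9 markers of a prostate luminal line were listed. Their summed values were higher in both shLuc libraries (126471 and 123923) than in the 4 knockdown libraries (94291 to 107693). By limma at an adjusted p under 0.05, 1 of the 9 rose and 4 fell in shIMPA1 (11.1% and 44.4%, against 14.0% and 16.2% of all genes). In shIMPDH2 3 rose and 2 fell (33.3% and 22.2%, against 7.86% and 9.15%). Markers of stroma, endothelium and blood summed to 349 to 1382, with 6 of 10 listed, and were higher in both shLuc libraries (1256 and 1382) than in the 4 knockdown libraries (349 to 494). The part of either marker set in the results below was not tested.

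Cytosolic ribosomes are built in the nucleolus from ribosomal RNA and one copy of most ribosomal proteins, with a multi-copy stalk on the large subunit. The messages for these proteins are among the most abundant of a growing cell. Most begin with a C followed by a run of pyrimidines, the terminal oligopyrimidine (TOP) motif, through which LARP1 and the kinase mTORC1 set how well the messages are translated and kept. Proteins made in excess of ribosomal RNA are degraded, except that RPL5 and RPL11, held with 5S ribosomal RNA, can bind MDM2, the ligase that keeps p53 low.

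The start-site sequences are shown because the TOP motif is what ties these genes together before any value is read. Each line gives 10 bases before the RefSeq transcription start and 20 bases from it, 5′ to 3′ on the gene's strand (GRCh38.p14), with the C at the start and the C or T bases that follow without a break in capitals. RPL32 and RPS28, which fell in shIMPA1, had no such run at the start and are not shown. For RPL23A and RPL39L, which also fell there, no RefSeq start window was found. The first 5 are genes that fell in shIMPA1, of which RPS13 and RPS23 also fell in shIMPDH2. The next 3 fell in shIMPDH2 alone by this test. The rest are a stalk gene that fell in neither and paralogs beside their core copies, of which RPL22 also fell in shIMPA1.
RPL11 (chr1:23691796-23691825, plus strand): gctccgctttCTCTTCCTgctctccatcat
RPL14 (chr3:40457329-40457358, plus strand): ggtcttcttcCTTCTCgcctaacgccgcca
RPL24 (chr3:101686699-101686728, minus strand): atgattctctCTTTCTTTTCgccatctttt
RPS13 (chr11:17077648-17077677, minus strand): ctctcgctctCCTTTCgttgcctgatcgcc
RPS23 (chr5:82278335-82278364, minus strand): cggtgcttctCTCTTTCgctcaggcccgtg
RPLP2 (chr11:809957-809986, plus strand): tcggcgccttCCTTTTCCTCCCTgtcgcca
RPS21 (chr20:62387093-62387122, plus strand): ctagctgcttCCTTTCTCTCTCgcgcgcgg
RPL36A (chrX:101391001-101391030, plus strand): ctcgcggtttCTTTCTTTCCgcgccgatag
RPLP0 (chr12:120201092-120201121, minus strand): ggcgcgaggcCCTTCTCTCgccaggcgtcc
RPL22 (chr1:6199576-6199605, minus strand): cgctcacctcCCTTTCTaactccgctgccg
RPL22L1 (chr3:170870176-170870205, minus strand): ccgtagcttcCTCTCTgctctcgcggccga
RPS27 (chr1:153990752-153990781, plus strand): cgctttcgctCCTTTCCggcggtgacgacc
RPS27L (chr15:63157458-63157487, minus strand): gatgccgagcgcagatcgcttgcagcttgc
RPL26 (chr17:8383174-8383203, minus strand): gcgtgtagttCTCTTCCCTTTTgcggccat
RPL26L1 (chr5:172958719-172958748, plus strand): tccaggggtcggcgaacgaaacgcggagct

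RefSeq start windows were found by symbol for 66 of the 83 genes. A C at the start followed by at least 4 C or T bases, on the gene's strand only, was present in 47 of the 66 (71.2%) and in 1404 of 27305 genes of the RefSeq table (5.14%). With such a run allowed to begin up to 5 bases from the start, the share was 81.8% of the ribosomal protein genes and 25.2% of all genes. RPL22L1 and its core copy RPL22 both had a run, whereas RPS27L and RPL26L1 had none at the start where RPS27 and RPL26 did. Where several starts were listed for a gene, the one with the longest run was used, and the match describes these letters only.

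Ribosomal protein genes took a large part of each library. Their share of reads in listed genes was 12.8% and 11.3% for shLuc, 11.3% and 13.2% for shIMPA1, and 9.38% and 10.3% for shIMPDH2. Both shIMPDH2 libraries lay below the other 4, and the shLuc and shIMPA1 libraries overlapped. The mean share was 12.1% ± 1.05 (SD, n = 2) in shLuc, 12.2% ± 1.31 in shIMPA1 and 9.86% ± 0.678 in shIMPDH2. The difference from shLuc was 0.181 percentage points in shIMPA1 (exact permutation test, two-sided, p = 0.667) and -2.20 points in shIMPDH2 (exact permutation test, two-sided, p = 0.33). With 2 libraries against 2, 0.33 is the smallest p that this exact test can give. Of the 100 most abundant genes, 51 were ribosomal protein genes in shLuc, 52 in shIMPA1 and 46 in shIMPDH2.

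**Figure D1:**
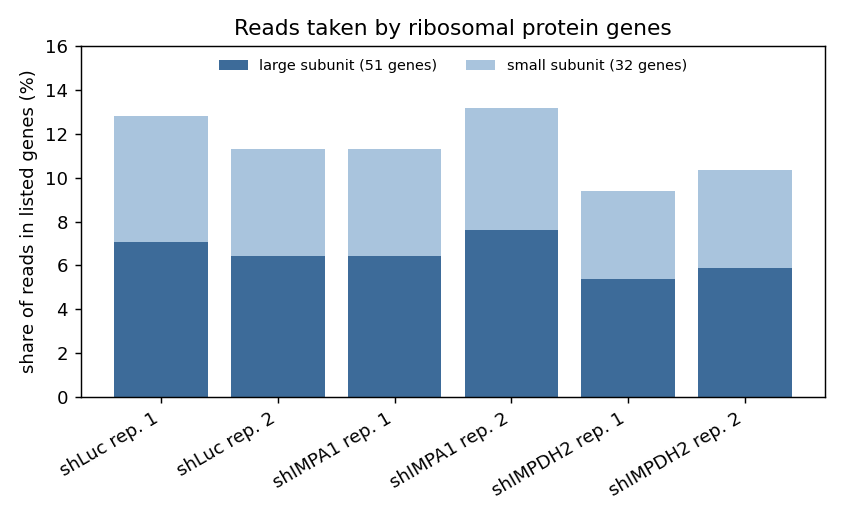
Share of reads in listed genes (%, vertical axis) taken by the 51 large-subunit and the 32 small-subunit ribosomal protein genes in each of the 6 libraries, as stacked bars without error. Both shIMPDH2 bars (9.38% and 10.3%) are shorter than the other 4, which run from 11.3% to 13.2%.

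Values below are normalized read counts, that is, reads divided by the library's size factor. To compare genes with one another, they were divided by the length of the principal transcript in kilobases. In shLuc the highest levels per kilobase were those of RPS27 (260530), RPS2 (130759), RPS3A (122738), RPS18 (116934) and RPS24 (115988), all of the small subunit. The lowest were RPL39L (2649), RPL28 (2049), RPL7L1 (1281), RPS27L (880) and RPL3L (6.31), of which all but RPL28 are paralogs. RPL3L, the striated-muscle counterpart of RPL3, had values of 5.18 to 16.2 in the 6 libraries against 44060 to 73195 for RPL3. The order depends on the transcript taken as the length: over all annotated exons RPS24 moved from rank 5 to rank 34, whereas RPS27 stayed first and RPL3L last.

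Within each group, one replicate was higher than the other for most of these genes. The median log2 ratio of replicate 1 to replicate 2 over the 83 genes was 0.12 in shLuc, -0.24 in shIMPA1 and -0.21 in shIMPDH2, whereas over all 17742 genes tested it was -0.02, 0.02 and -0.01. Replicate 1 was the higher for 58 of the 83 genes in shLuc, 12 in shIMPA1 and 7 in shIMPDH2. Relative to the shLuc mean, the median gene stood at -0.15 and 0.10 in the shIMPA1 libraries and at -0.35 and -0.18 in the shIMPDH2 libraries, on the log2 scale. The shIMPA1 libraries thus lay on either side of shLuc, and both shIMPDH2 libraries lay below it.

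**Figure D2:**
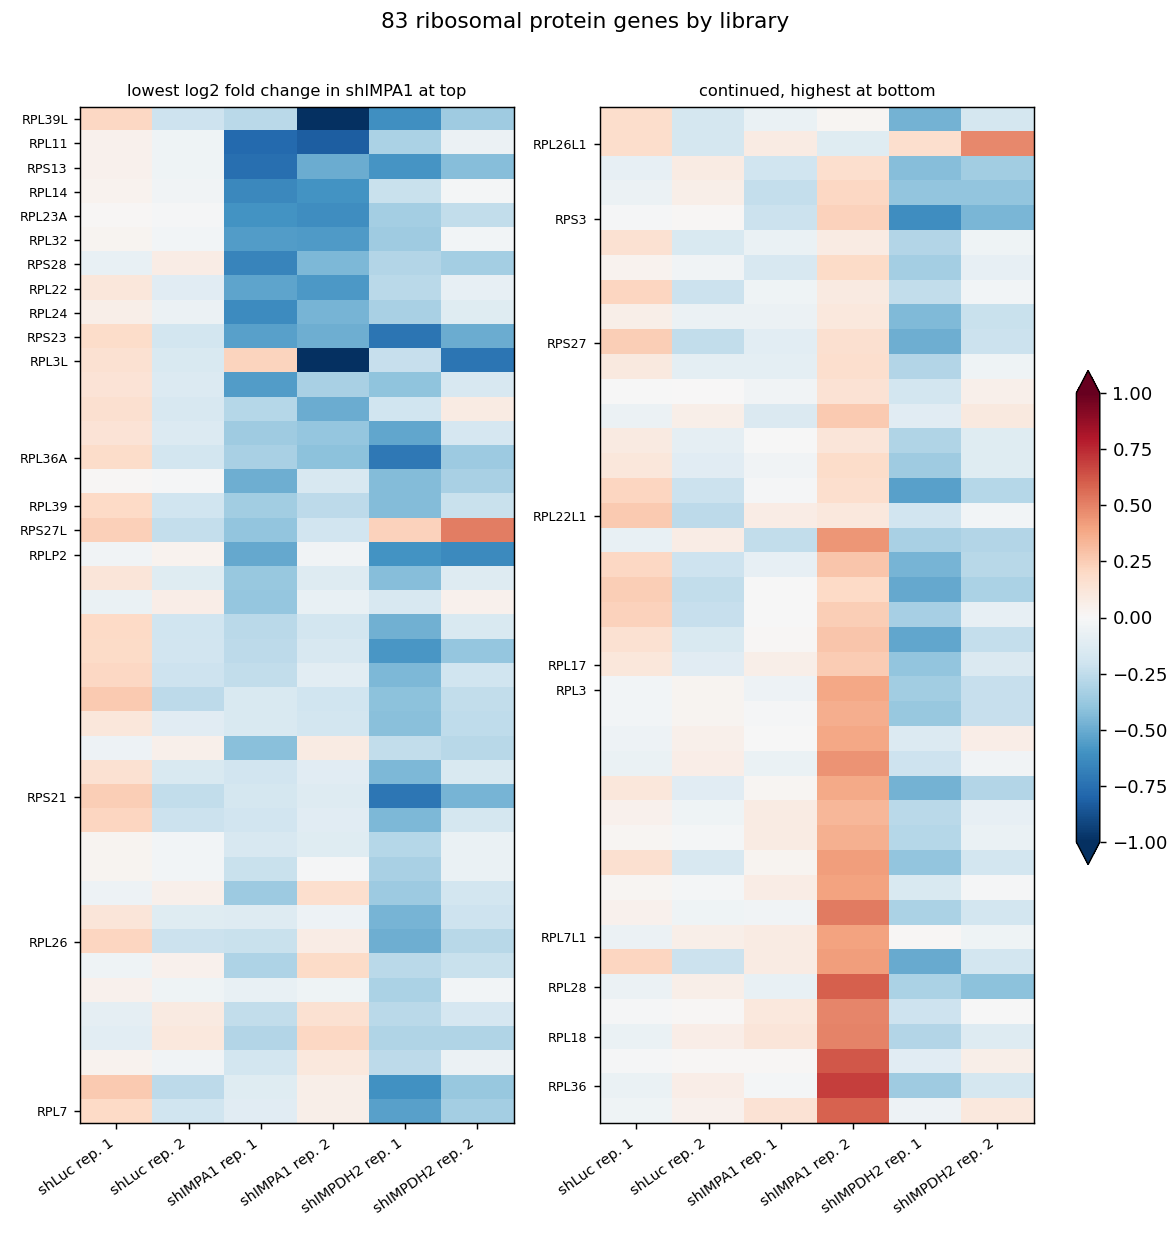
Heat map of all 83 ribosomal protein genes (rows, ordered by the log2 fold change of shIMPA1 against shLuc, continued in the right panel) in the 6 libraries (columns), coloured by log2(value + 1) minus the shLuc mean, with colours ending at -1 and 1. Names are given for the genes called in any comparison and for the paralogs with their core copies. The shIMPDH2 columns are blue for nearly all genes, and in shIMPA1 the genes at the top are blue while those at the bottom are red mainly in replicate 2.

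In shIMPA1 against shLuc, a subset of ribosomal protein genes fell, and the median of the family lay near 0. With limma on log2(value + 1), 10 of the 83 genes fell and 0 rose at an adjusted p under 0.05, or 12%, against 30.2% of all genes tested (16.2% lower and 14.0% higher). At an unadjusted p under 0.05, 13 were lower and 0 higher, against 3796 lower and 3510 higher of all 17742 genes. By edgeR 9 fell and 0 rose, where 30.9% of all genes were called. By DESeq2 10 fell and 0 rose, where 26.4% of all genes were called. The median log2 fold change was -0.03 for the 83 genes, with 46 negative, and 0.02 for all genes; with values scaled to CPM the median of the 83 was 0.02, with 37 negative. Both shIMPA1 libraries lay below both shLuc libraries for 21 of the 83 genes (25.3%, against 32.7% of all genes) and above them for 8 (9.64%, against 33.7%).

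RPL11, the partner of RPL5 in the 5S particle, was lower in both shIMPA1 libraries. Its values were 25663 and 24054 in shLuc, 14484 and 14052 in shIMPA1, then 19901 and 23844 in shIMPDH2. Both shIMPA1 libraries lay below the other 4, with replicates close to each other. The log2 fold change was -0.80 (SE 0.144, limma adjusted p = 0.00219), and it was called with any 1 library left out. RPL5 had 39954 and 36675 in shLuc, 36829 and 41142 in shIMPA1, then 28244 and 32834 in shIMPDH2. The groups shLuc and shIMPA1 overlapped for RPL5, at a log2 fold change of 0.02 (limma adjusted p = 0.925), and the shIMPDH2 libraries lay below both (-0.33 against shLuc, limma adjusted p = 0.179). Around RPL11 (chromosome 1, 23691742 to 23696835, GRCh38), 9 of the 29 other genes tested within 1 Mb also fell in shIMPA1 and 1 rose, at a median log2 fold change of -0.21. The part of the neighbouring genes in this result was not tested.

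RPL23A, at the surface of the large subunit where the new chain leaves the tunnel, had 23586 and 23162 in shLuc, 15473 and 15228 in shIMPA1, then 18466 and 19738 in shIMPDH2. The 3 groups did not overlap, with shIMPA1 lowest. Its log2 fold change in shIMPA1 was -0.61 (SE 0.133, limma adjusted p = 0.00621), also called with any 1 library left out. RPL23A has 91 annotated pseudogenes, the most of any of these genes, and snoRNA genes overlap its exons, so its reads are less certain than those of RPL11, which has 3 pseudogenes and no overlapping exon.

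RPL14, a large-subunit protein, had 27481 and 26033 in shLuc, 17128 and 17635 in shIMPA1, then 22931 and 26403 in shIMPDH2. RPS13, a core small-subunit protein, had 10297 and 9725 in shLuc, 5931 and 7109 in shIMPA1, then 6666 and 7468 in shIMPDH2. For both genes the shIMPA1 and shLuc libraries were apart, and for RPS13 the shIMPDH2 libraries were low too. The log2 fold change in shIMPA1 was -0.62 for RPL14 (limma adjusted p = 0.0079) and -0.62 for RPS13 (limma adjusted p = 0.00584). For both, the call was lost without shLuc replicate 1 (adjusted p = 0.064 and 0.0617).

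RPL32 had 30523 and 29482 in shLuc against 20364 and 20235 in shIMPA1, and RPL22, which T cells in particular depend on, had 18086 and 15525 against 11657 and 11243. RPS28 had 10258 and 11409 against 6832 and 7935. No shIMPA1 library reached a shLuc library for any of these genes. Their log2 fold changes were -0.56, -0.55 and -0.56, at limma adjusted p-values of 0.0187, 0.0135 and 0.00924. RPL24, which takes part in joining the subunits, had 25131 and 23128 in shLuc against 15624 and 17451 in shIMPA1 (log2 fold change -0.55, limma adjusted p = 0.0163). RPS23, which lines the decoding centre, had 44080 and 34334 in shLuc against 26671 and 27697 in shIMPA1 (log2 fold change -0.52, limma adjusted p = 0.0384). Without shLuc replicate 1 the calls of RPL22 (limma adjusted p = 0.12), RPS23 (0.263), RPL24 and RPL32 were lost, and without shLuc replicate 2 those of RPS28 (0.092), RPL24 and RPL32. RPL24 falls outside the 8 largest falls and was chosen after its values were seen.

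RPL39L, a paralog of the tunnel protein RPL39 known for its expression in testis and some tumours, had the largest fitted fall and the least even values. It had 2284 and 1720 in shLuc, 1643 and 731 in shIMPA1, then 1297 and 1552 in shIMPDH2. The second shIMPA1 library was far below the first, which nearly reached shLuc. The log2 fold change was -0.85 (SE 0.291, limma adjusted p = 0.0456). It was not called by edgeR (adjusted p = 0.061), DESeq2 (adjusted p = 0.251) or limma without a mean-variance trend (adjusted p = 0.169). Without shIMPA1 replicate 2 the log2 fold change was -0.27.

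**Figure D3:**
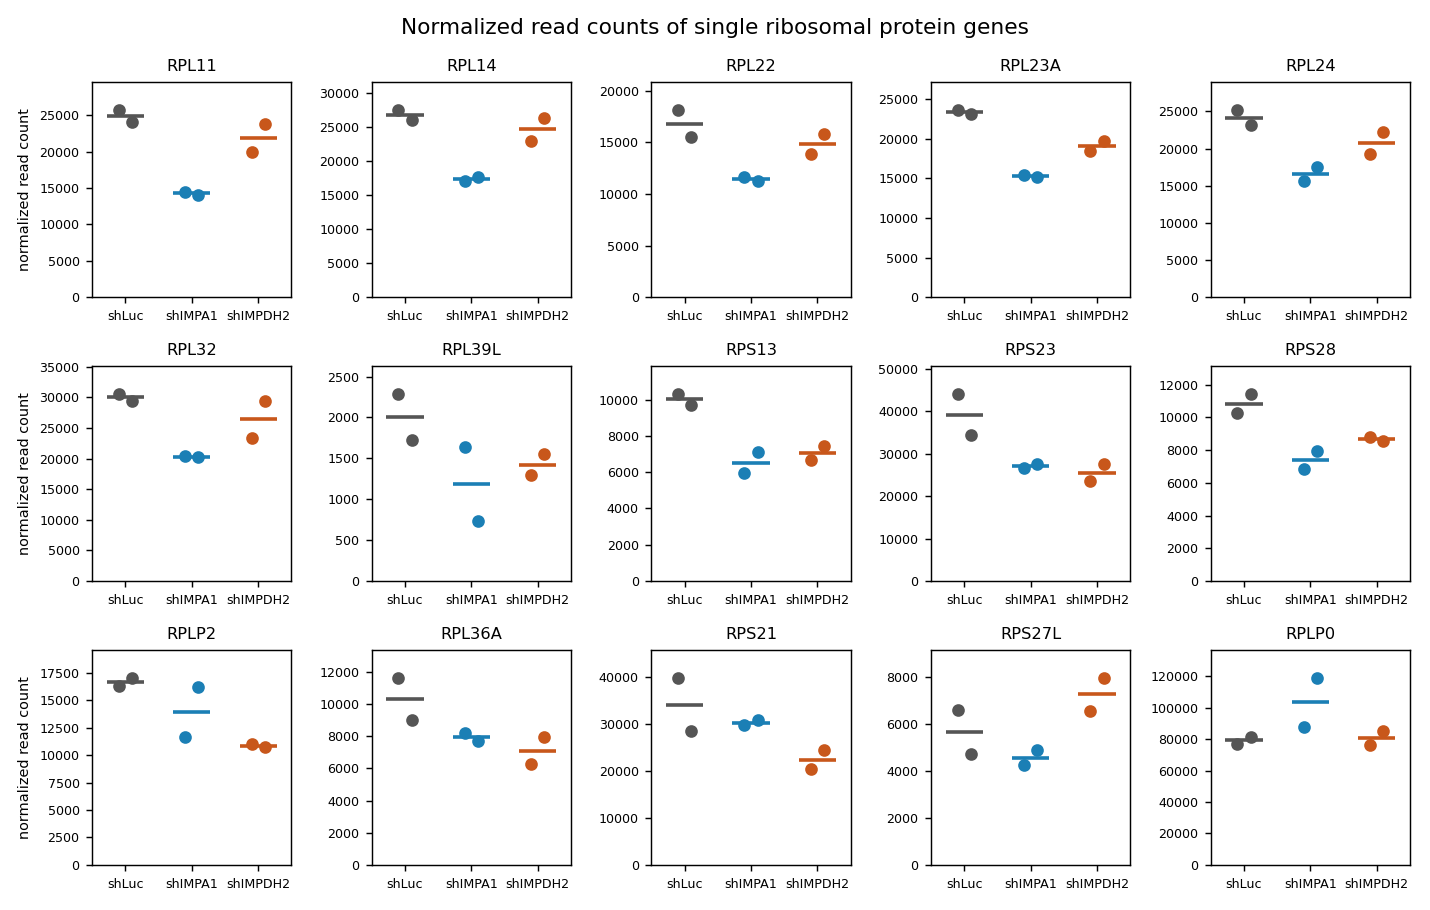
Normalized read counts (vertical axes from 0) of 15 ribosomal protein genes in shLuc, shIMPA1 and shIMPDH2. Points are the 2 libraries of a group and bars their mean. RPL11, RPL14, RPL23A and RPL32 show shIMPA1 below both other groups, and RPLP2 shows both shIMPDH2 libraries (11033 and 10722) below all others.

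At the other end of the family, no gene passed the test upward in shIMPA1. RPLP0, the scaffold of the stalk to which the RPLP1 and RPLP2 proteins attach, had 76886 and 81653 in shLuc, 87806 and 118959 in shIMPA1, then 76362 and 85218 in shIMPDH2. Both shIMPA1 libraries were above the other 4, replicate 2 by far the more. The log2 fold change was 0.37 (SE 0.201, limma adjusted p = 0.194). Without shIMPA1 replicate 1, 20 genes were called against shLuc, 11 lower and 9 higher, while 45.0% of all genes were called. Without shLuc replicate 1, 3 genes were called lower, and without shLuc replicate 2, 6, with 0 higher in either. Calls over all genes dropped as well, to 12.4% and 12.2%.

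The 10 genes that fell in shIMPA1 were set beside the others by what their annotation gives. TOP runs at the start were present in 6 of the 8 that had a RefSeq window, and in 41 of the 58 others. The median GC content of the principal transcript was 48.0% in the 10 genes and 50.3% in the other 73, and the median number of exons was 4.5 and 5. The 10 genes had a median of 3.5 annotated pseudogenes and the others 9, and a median shLuc value of 23752 against 31957. No test was made of these differences.

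In shIMPDH2 against shLuc, nearly the whole family was lower by a small amount, and few single genes passed the test. The direction was the same with TMM or CPM scaling. By limma 5 of the 83 genes fell and 0 rose, or 6.02%, against 17.0% of all genes (9.15% lower and 7.86% higher). At an unadjusted p under 0.05, 16 were lower and 1 higher, against 2911 lower and 2760 higher of all 17742 genes. By edgeR 6 fell and 0 rose (7.23%, against 17.0% of all genes called). By DESeq2 9 fell and 0 rose (10.8%, against 14.8%). The median log2 fold change was -0.28 for the 83 genes, with the middle 50% between -0.36 and -0.18, and -0.01 for all genes. It was negative for 80 of the 83 genes and for 50.6% of all genes. Both shIMPDH2 libraries lay below both shLuc libraries for 55 of the 83 genes (66.3%, against 33.4% of all genes) and above them for 0 (against 32.7%). The median was -0.27 in the large subunit and -0.29 in the small subunit. Genes share their libraries, so these counts are not 83 separate observations. Without shLuc replicate 1 the median was -0.16, with 77 of the 83 genes negative.

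**Figure D4:**
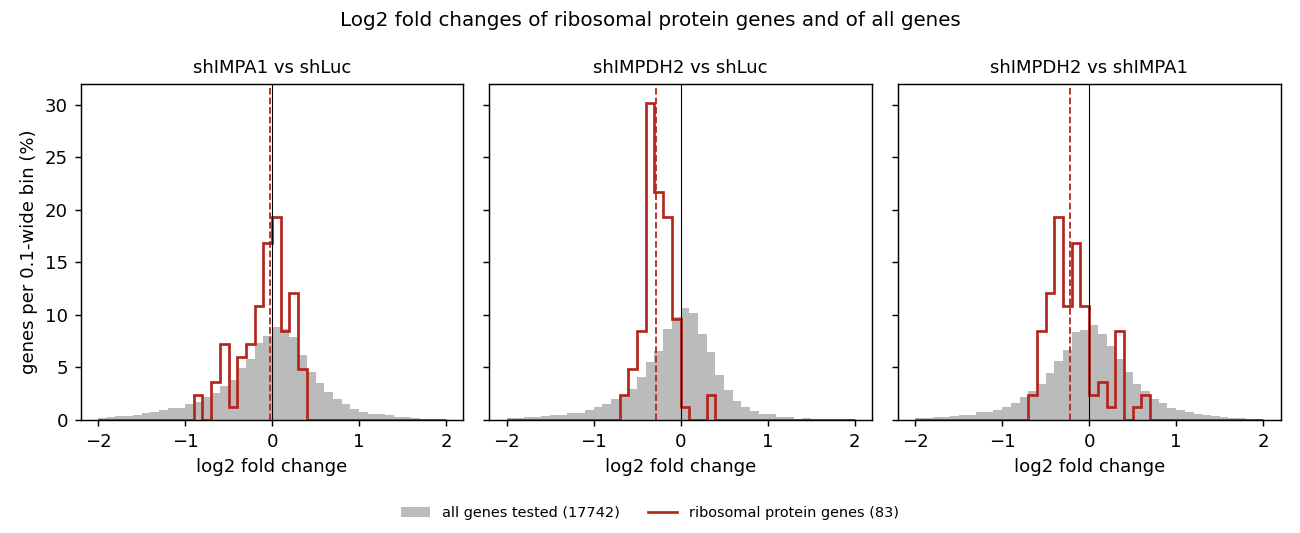
Distribution of log2 fold changes (horizontal axes, 0.1-wide bins, values beyond -2 and 2 not drawn) of the 83 ribosomal protein genes (red outline, dashed line at their median) and of all 17742 genes tested (grey), as a percent of genes (vertical axis), in the 3 comparisons. In shIMPDH2 against shLuc the red outline lies left of 0 for 80 genes (median -0.28), and in shIMPA1 against shLuc it has a left arm around a median of -0.03.

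RPLP2, one of the acidic stalk proteins that recruit elongation factors, had 16322 and 17047 in shLuc, 11676 and 16240 in shIMPA1, then 11033 and 10722 in shIMPDH2. Both shIMPDH2 libraries were below the other 4, although the first shIMPA1 library was close. The log2 fold change in shIMPDH2 was -0.62 (SE 0.161, limma adjusted p = 0.0241). Its partners moved less: RPLP1 had 18969 and 20217 in shLuc against 16240 and 16761 in shIMPDH2 (log2 fold change -0.25, limma adjusted p = 0.348). RPLP0 had a log2 fold change of 0.03 (limma adjusted p = 0.944), the only core gene above 0. The differences between the stalk genes were not tested.

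RPS23 and RPS13 fell in both knockdowns, the only 2 genes of the family called lower against shLuc in each, and both comparisons use the same shLuc libraries. In shIMPDH2, RPS23 had 23506 and 27576 (log2 fold change -0.61, limma adjusted p = 0.03) and RPS13 a log2 fold change of -0.50 (limma adjusted p = 0.0268). RPS21, a small-subunit protein, had 39732 and 28391 in shLuc against 20392 and 24364 in shIMPDH2 (log2 fold change -0.59, limma adjusted p = 0.0469). RPL36A had 11616 and 9034 in shLuc against 6247 and 7971 in shIMPDH2 (log2 fold change -0.54, limma adjusted p = 0.0414). For all 4 genes the groups did not overlap, but the shLuc libraries of RPS21, RPS23 and RPL36A were themselves wide apart, with replicate 1 the higher. RPL36A and the RPL36A-HNRNPH2 readthrough gene share exons, and RPS13 shares exons with PIK3C2A and SNORD14B.

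No call in shIMPDH2 withstood the loss of every library in turn: RPS21 kept its call in 1 of the 4 fits and RPLP2, RPS13, RPS23 and RPL36A in 0. With only the shLuc and shIMPDH2 libraries fitted, 19 genes were called, 17 lower and 2 higher (RPL26L1 and RPS27L), with 36.5% of all genes called. RPS6, the S6 kinase substrate, had 35471 and 38178 in shLuc against 28667 and 32459 in shIMPDH2. RPSA, the laminin-binding protein of the small subunit, had 59616 and 52892 against 45482 and 51570. Their groups did not overlap, at log2 fold changes of -0.27 and -0.21 (limma adjusted p = 0.354 and 0.419). In shIMPA1 the log2 fold changes were -0.10 and 0.06, neither called.

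Set directly against each other, the knockdowns differed in single genes, which is the test of a difference between their effects. By limma 8 of the 83 genes were called, 3 higher and 5 lower in shIMPDH2 than in shIMPA1, or 9.64%, against 26.1% of all genes (13.5% higher and 12.6% lower). The count depended on the method: edgeR called 12 (14.5%, against 25.7% of all genes), DESeq2 24 (28.9%, against 22.4%), and limma on CPM 23 (27.7%, against 25.2%). The median log2 fold change was -0.22, with 67 of the 83 negative. Both shIMPDH2 libraries lay below both shIMPA1 libraries for 41 genes (49.4%, against 32.4% of all genes) and above them for 10 (12%, against 31.5%). The higher genes were RPS27L (log2 fold change 0.67, limma adjusted p = 0.015), RPL11 (0.61, 0.011) and RPL14 (0.50, 0.0247). Of the other genes tested within 1 Mb, 7 of 16 around RPS27L were also higher and 0 lower (median 0.35). Around RPL11, 10 of 29 were higher and 0 lower (median 0.35), and around RPL14, 1 of 10 was higher and 2 lower (median 0.04). The part of these neighbours was not tested.

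The 5 lower genes were RPL28 (-0.63), RPL36 (-0.60), RPS3 (-0.55), RPL18 (-0.52) and RPL17 (-0.42), at limma adjusted p-values of 0.0316 to 0.0494. RPL36 had 13778 and 22636 in shIMPA1 against 10956 and 12375 in shIMPDH2, and RPL28 had 9329 and 14855 against 7868 and 7381. In both genes the second shIMPA1 library was far above the first. Without that library all 5 genes lost their call, at a log2 fold change of -0.24 for RPL36 and -0.29 for RPL28. Without shIMPA1 replicate 1, 34 were called (41.0%, against 40.0% of all genes). Without shIMPDH2 replicate 1 or replicate 2, 2 and 0 were called, against 10.6% and 8.09% of all genes. RPS3, an entry-tunnel protein that also acts in DNA repair, had 26934 and 27363 in shLuc and 17692 and 19767 in shIMPDH2 (log2 fold change against shLuc -0.54, limma adjusted p = 0.051).

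For some paralogs, the ratio to the core copy was apart between groups. It is compared here only between libraries, since the genes differ in length, and 2 libraries a group allow no exact p under 0.33. RPL22L1, which can replace RPL22, stood at 49.0% and 39.8% of RPL22 in shLuc, 66.9% and 70.9% in shIMPA1, then 46.7% and 45.8% in shIMPDH2. Both shIMPA1 libraries were above the other 4. RPL22L1 itself had 8861 and 6186 in shLuc against 7796 and 7971 in shIMPA1 (log2 fold change 0.09, limma adjusted p = 0.713), while RPL22 fell.

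RPS27L, a paralog of RPS27 known as a p53 target, stood at 6.03% and 6.08% of RPS27 in shLuc, 4.97% and 4.74% in shIMPA1, then 9.98% and 10.0% in shIMPDH2. The replicates were close and the 3 groups did not overlap. Its values were 6589 and 4729 in shLuc, 4248 and 4883 in shIMPA1, then 6565 and 7964 in shIMPDH2. RPS27L in shIMPDH2 overlapped shLuc, at a log2 fold change of 0.37 (limma adjusted p = 0.154), while RPS27 had a log2 fold change of -0.35 (limma adjusted p = 0.3).

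RPL26L1 stood at 6.35% and 6.70% of RPL26 in shLuc, 8.06% and 5.72% in shIMPA1, then 10.3% and 11.1% in shIMPDH2. Both shIMPDH2 libraries were above the other 4, although neither RPL26L1 (log2 fold change 0.32, limma adjusted p = 0.174) nor RPL26 (-0.38, 0.178) passed the test alone. RPL7L1, related to RPL7 and known in large-subunit assembly, stood at 6.64% and 9.51% in shLuc, 9.12% and 10.1% in shIMPA1, then 11.7% and 9.78% in shIMPDH2, with shLuc and shIMPA1 overlapping. RPL39L stood at 8.92% and 8.87% of RPL39 in shLuc, 9.38% and 3.94% in shIMPA1, then 7.84% and 8.11% in shIMPDH2. RPL3L stayed under 0.03% of RPL3 in all 6 libraries. RPL10, whose paralog RPL10L was not analysed here, had log2 fold changes of 0.24 in shIMPA1 and -0.08 in shIMPDH2, neither called.

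**Figure D5:**
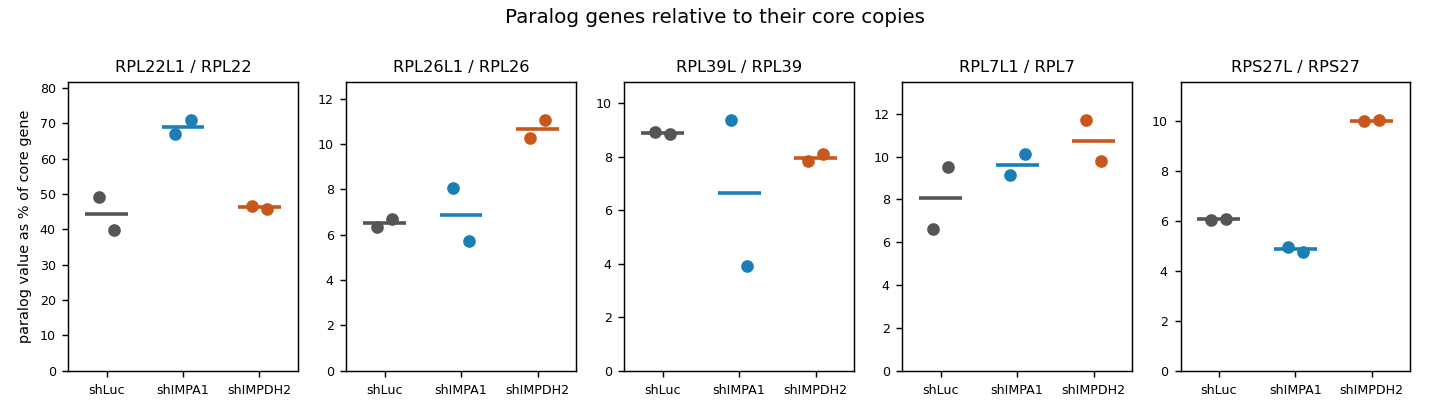
Value of 5 paralogs as a percent of the value of their core copy (vertical axes from 0) in shLuc, shIMPA1 and shIMPDH2, with points for the 2 libraries of a group and bars for their mean. RPL22L1 is highest beside RPL22 in shIMPA1 (66.9% and 70.9%), and RPS27L and RPL26L1 are highest beside RPS27 and RPL26 in shIMPDH2.

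RPL36AL, a second copy of RPL36A that the name rule leaves out, had 4195 and 3994 in shLuc, 2133 and 2969 in shIMPA1, then 4481 and 4748 in shIMPDH2. It fell in shIMPA1 (log2 fold change -0.70, limma adjusted p = 0.00587) and was higher in shIMPDH2 than in shIMPA1 (0.87, 0.00218), whereas RPL36A was lower in shIMPDH2 than in shLuc. Among 81 listed ribosomal protein pseudogenes, 4 rose (4.94%, against 14.0% of all genes) and 4 fell (4.94%, against 16.2%) in shIMPA1. In shIMPDH2, 0 rose (against 7.86% of all genes) and 8 fell (9.88%, against 9.15%). Their median log2 fold changes, -0.05 in shIMPA1 and -0.33 in shIMPDH2, are close to the medians of the genes themselves.

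Hosts of snoRNAs, many of which are known TOP transcripts, had calls upward in shIMPA1, where no ribosomal protein gene had one. Of 13 hosts, 4 rose (30.8%, against 14.0% of all genes) and 0 fell (against 16.2%) in shIMPA1, at a median log2 fold change of 0.26. The rises were led by SNHG8 (0.89), ZFAS1 (0.72), SNHG7 (0.69) and GAS5 (0.67). In shIMPDH2 0 rose (against 7.86% of all genes) and 5 fell (38.5%, against 9.15%), at a median of -0.32. Among the 5 were ZFAS1 (-0.61), GAS5 (-0.59), SNHG32 (-0.56) and EPB41L4A-AS1 (-0.49). GAS5 had 11005 and 9807 in shLuc, 15869 and 17168 in shIMPA1, then 6264 and 7623 in shIMPDH2, without overlap between groups. Between the knockdowns 11 of the 13 (84.6%, against 12.6% of all genes) were lower in shIMPDH2 and 0 higher (against 13.5%), at a median of -0.70. Of the 83 ribosomal protein genes, 5 were lower (6.02%). This list was compared by its counts only.

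The counts of the lists that follow stand beside 14.0% of all genes higher and 16.2% lower in shIMPA1, and 7.86% higher and 9.15% lower in shIMPDH2. Among 20 translation factors and other TOP messages, 1 rose (EIF3G 0.53) and 3 fell in shIMPA1 (NAP1L1 -0.76, EEF1B2 -0.52, HNRNPA1 -0.50), with a median of -0.07. In shIMPDH2 0 rose and 2 fell (HNRNPA1 -0.65 and EEF1G -2.17, the latter at values of 3.37 to 21.9), with a median of -0.10. Of 16 genes of mTORC1, LARP1 and the S6 kinases, 7 rose in shIMPA1, among them the mTOR inhibitor DEPTOR (0.73), the translation repressor EIF4EBP1 (0.70) and TSC1 (0.55), and the cap-binding EIF4E fell (-0.52). In shIMPDH2 1 rose (RPS6KB2, 0.45) and 0 fell.

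Of 20 genes that chaperone, import or assemble ribosomal proteins, 3 rose (15%, against 14.0% of all genes) and 5 fell (25%, against 16.2%) in shIMPA1, with the smallest adjusted p-values for the importins IPO5 (-0.45) and IPO9 (-0.46), the kinase RIOK2 (-0.59) and NAP1L4 (-0.43). In shIMPDH2 2 rose (10%, against 7.86% of all genes), SDAD1 (0.51) and TNPO1 (0.44), and 0 fell, with a median of 0.15 beside -0.28 for the ribosomal protein genes. Of 20 genes of ribosome rescue and quality control, 5 rose and 3 fell in shIMPA1, led by ASCC2 (0.86), TRIP4 (0.56), IFRD2 (0.45) and TCF25 (0.44). In shIMPDH2 2 rose, ASCC2 (0.65) and TRIP4 (0.62), members of the complex that takes collided ribosomes apart, and 0 fell.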

How the data were processed

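Poly(A) RNA of 6 libraries was sequenced. The submitters' processing notes name Trimmomatic 0.36, STAR 2.5.2b, Subread 1.5.2, DESeq2 and the build GRCh38. Only unique reads in exons entered the counts, per the labels' protocols, so genes with near-identical pseudogenes may lose reads. Whether strand was kept is not given in the sources used here, so reads of overlapping and antisense genes cannot be told apart: 77 of the 83 genes have an annotated pseudogene, 35 share exon bases with another gene on their strand and 30 with one on the other strand. The signal values that the authors deposited are read counts divided by 1 size factor per library. Undoing that division gave whole reads (tolerance 0.05) for 99.98% to 100.0% of genes in a library, and the count alternatives used these reads. The log2 fold changes and p-values in the authors' deposited columns belong to a comparison whose name is not given in the sources used here, and were not used.

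Symbols and coordinates came from a gene name table and GENCODE release 29, and start windows from RefSeq. A gene was tested if 2 or more libraries had a value of 10 or more (17742 genes, with 69 removed). One limma 3.58.1 model with a mean-variance trend on log2(value + 1) in R 4.3.3 covered all 6 libraries (3 residual degrees of freedom), with Benjamini-Hochberg adjustment over all genes and calls under 0.05. SE is limma's moderated standard error. The fit was also run on simulated counts in which genes vary independently, with the outcome not given here. Such counts hold no shift shared by a family of genes, so they cannot show how the fit handles one. Fold changes on this scale understate changes of genes with few reads. Counts per library of 20828900 reads or more leave sampling error small for all of these genes but RPL3L.

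Alternatives were edgeR 4.0.16 and DESeq2 1.42.0 on the recovered reads, other scalings, pseudocounts and filters, no trend, only the groups compared, a replicate block, and each library left out. Named genes were the called members with the largest log2 fold changes (up to 8 per comparison), the paralogs with their core copies, the stalk, RPL5, RPL11, RPS6, RPSA, the 5 highest and lowest per kilobase, and up to 4 genes of each other list with the smallest adjusted p. Some genes that met these rules are not reported here. The members and lists were chosen with earlier results of these data known.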

Additional observations from a re-analysis of the deposited data

How the results depend on the processing

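No gene named changed direction in a call under any alternative. Most of the gene values counted next were not called in the main fit. The share that kept its side of the threshold is therefore no measure of how the calls held. Of the 10 main calls in shIMPA1, 5 in shIMPDH2 and 8 between the knockdowns, DESeq2 kept 9, 5 and 8. Without a mean-variance trend 7, 0 and 1 were kept. Of 1421 recomputed gene values, 1308 kept their side of the threshold, 90 lost a call and 23 gained one. In shIMPA1 against shLuc, 3 to 20 genes were called with 1 library left out (12.2% to 45.0% of all genes), and 6 with each library centred on the median ribosomal protein gene, a scaling chosen after seeing the data. Of the 10 main calls, 2 (RPL11 and RPL23A) were kept with every library left out in turn.

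In shIMPDH2 against shLuc, 9 genes were called by DESeq2 (10.8%, against 14.8% of all genes), 0 without a mean-variance trend (against 9.73%), 19 with only the groups compared (22.9%, against 36.5%), 1 with the centring (RPS27L, higher) and 0 to 1 with 1 library left out (4.38% to 5.64% of all genes). The median log2 fold change ran from -0.35 to -0.16 with 1 library left out and was -0.054 with the centring, which removes a shared shift by construction. Between the knockdowns, 24 genes were called by DESeq2 (28.9%, against 22.4% of all genes), 23 with CPM scaling (27.7%, against 25.2%), 1 without a trend (1.2%, against 16.4%), 4 with only the groups compared (4.82%, against 19.6%) and 0 to 34 with 1 library left out (8.09% to 40.0% of all genes), and the median was -0.040 with the centring. The cause was not tested.

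Replicate numbers did not pair the libraries: deviations of same-numbered libraries correlated at 0.042, -0.049 and 0.000266 across genes. With a replicate block, 10 of the 83 genes were called in shIMPA1 against shLuc, where 29.9% of all genes were called. In shIMPDH2 against shLuc 5 were called, against 16.6% of all genes, and between the knockdowns 7, against 25.6%. The centring called 6 in shIMPA1 and 1 in shIMPDH2 against shLuc, beside 17.0% and 11.8% of all genes. Between the knockdowns the centring called 7, beside 17.4% of all genes. TMM scaling and the other filters and pseudocounts kept each count within 1.5 times. Where an arm had 1 library, it was assumed to vary like the other groups.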
